A study of Mus musculus with 3 samples.

Results

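Cycling macrophages are macrophages caught while they copy their DNA or divide. Here they are 1379 barcodes of 33159 in 3 single-cell RNA libraries of mouse heart leukocytes, and 1379 of 13835 C1q macrophages. They were chosen by counts of molecules (UMIs): at least 5 UMIs of the complement genes C1qa, C1qb and C1qc together, and at least 2 UMIs of Mki67 and Top2a together. Mki67 encodes the proliferation antigen Ki-67 and Top2a the topoisomerase that untangles chromosomes. Barcodes also needed at least 200 genes, at most 10% mitochondrial UMIs, under 0.3% of UMIs from the neutrophil genes S100a8 and S100a9, and no UMI of Cd79a, Cd3d, Cd3e or Cd3g. They were set against the 11122 C1q macrophages without a Mki67 or Top2a UMI, called non-cycling below. The 1334 C1q macrophages with exactly 1 such UMI entered neither class.

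All mice were C57BL/6J and 8 to 9 weeks old, and the cells were sorted from the heart on the leukocyte protein CD45. The 3 groups are labelled Sham, MI (myocardial infarction) and MI-E, which the labels leave as an abbreviation. The surgical text of the labels, ligation of the coronary artery, is the same for all 3 groups, Sham included. How long after surgery the hearts were taken, and how many went into each library, is not stated, and each group has 1 library. Every difference below is therefore a difference between cells of 1 library, or between single libraries, with no replicate check. No test was possible, and intervals cover counting error only at the 95% level. The libraries held 41140109, 98814001 and 104562768 UMIs in Sham, MI and MI-E, and pairs of them shared 26 to 45 barcode sequences, of which 1 to 3 per pair were a cycling macrophage in 1 library and 0 in both.

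In adult tissues some macrophages renew themselves by division in place, while others arise from blood monocytes that enter after injury. In the heart, Timd4, Lyve1 and Folr2 mark resident macrophages, Ly6c2 and Ccr2 mark classical monocytes and their recent offspring, and MHC class II genes mark cells that present antigen. Macrophages of an infarct take up dead cells and lipid and express Spp1, Gpnmb, Trem2 and Arg1. Division follows a fixed order, in which E2F factors switch on DNA replication genes and a repressor complex named DREAM gives way to factors that switch on the genes of mitosis.

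The division genes of these cells carry known letters in their promoters, so 5 promoters are shown for genes that were far higher in cycling than in non-cycling cells of all 3 libraries. The sequences come from RefSeq on GRCm38.p6, the assembly also called mm10, and run from 250 bases before to 30 bases after the annotated start. Capitals mark 3 motifs searched on both strands: the CHR element TTTGAA, which DREAM binds, the CCAAT box CCAAT, which NF-Y binds, and the E2F sites TTTCCCGC and TTTGGCGC. None of the motifs overlap one another in these windows. Mki67 lies at chr7:135716350-135716629 on the minus strand and is a gene the cells were selected on. Prc1, a bundler of spindle microtubules, lies at chr7:80294201-80294480 on the plus strand, and Cenpf, a kinetochore gene, at chr1:189688057-189688336 on the minus strand. Pclaf, whose product binds the replication clamp PCNA, lies at chr9:65890073-65890352 on the plus strand. Hells, a chromatin remodeller, lies at chr19:38930740-38931019 on the plus strand.
Mki67: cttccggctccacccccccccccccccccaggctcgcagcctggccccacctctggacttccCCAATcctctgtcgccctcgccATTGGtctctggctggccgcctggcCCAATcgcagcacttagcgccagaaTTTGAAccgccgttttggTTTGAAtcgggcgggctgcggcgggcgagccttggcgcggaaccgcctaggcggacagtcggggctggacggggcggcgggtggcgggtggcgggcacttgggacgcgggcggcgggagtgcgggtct
Prc1: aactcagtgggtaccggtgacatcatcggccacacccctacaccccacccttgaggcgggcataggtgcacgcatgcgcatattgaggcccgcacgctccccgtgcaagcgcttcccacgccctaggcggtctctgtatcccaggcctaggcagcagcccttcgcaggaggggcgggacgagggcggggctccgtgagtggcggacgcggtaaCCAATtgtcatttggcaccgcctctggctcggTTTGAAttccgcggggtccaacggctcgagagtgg
Cenpf: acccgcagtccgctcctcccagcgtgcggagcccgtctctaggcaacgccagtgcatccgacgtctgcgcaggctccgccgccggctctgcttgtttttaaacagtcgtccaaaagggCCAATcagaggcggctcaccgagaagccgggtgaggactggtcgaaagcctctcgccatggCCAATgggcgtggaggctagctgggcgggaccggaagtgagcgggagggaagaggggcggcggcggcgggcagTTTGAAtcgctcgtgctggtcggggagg
Pclaf: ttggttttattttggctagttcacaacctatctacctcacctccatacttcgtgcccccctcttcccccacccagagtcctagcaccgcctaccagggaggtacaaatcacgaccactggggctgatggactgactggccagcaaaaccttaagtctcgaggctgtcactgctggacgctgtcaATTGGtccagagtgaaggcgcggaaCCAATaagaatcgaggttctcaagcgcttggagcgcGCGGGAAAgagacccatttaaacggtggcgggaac
Hells: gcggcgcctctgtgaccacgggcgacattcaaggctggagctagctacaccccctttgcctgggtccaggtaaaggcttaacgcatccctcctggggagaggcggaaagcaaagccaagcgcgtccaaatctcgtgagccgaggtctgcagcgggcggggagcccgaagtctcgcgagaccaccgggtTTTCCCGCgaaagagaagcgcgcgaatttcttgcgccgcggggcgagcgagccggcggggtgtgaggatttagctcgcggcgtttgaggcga

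Mki67, Prc1 and Cenpf each held TTTGAA and CCAAT, Pclaf held CCAAT and an E2F site, and Hells held an E2F site only. In Prc1 the TTTGAA begins 5 bases before the start and the CCAAT 37 bases before it. In Pclaf the E2F site begins 5 bases before the start, and in Hells 62 bases before it. Of 27025 promoters of this length in the table, 19.5% held TTTGAA, 39.7% CCAAT, 1.68% an E2F site, and 7.38% both TTTGAA and CCAAT. Of 9668 genes measured in any comparison here, 7670 matched, and they are the closer background. Of those 7670, 1073 held TTTGAA, 3208 CCAAT, 278 an E2F site and 431 both TTTGAA and CCAAT, so E2F sites were more frequent and TTTGAA less frequent than over all promoters. Among 28 of the 34 DNA replication genes that matched the table, 28.6% held an E2F site, 67.9% CCAAT and 21.4% TTTGAA. Only 53 of the 68 G2 and mitosis genes matched, too few to speak for the list. Of those 53, 31 held TTTGAA, 38 held CCAAT, 28 held both and 1 held an E2F site. A match describes letters in a window and does not show that a factor binds there.

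The label was checked against the cells before anything else. All 10 macrophage markers of a preset list, among them Adgre1, Csf1r, Mertk and Cd68, were detected in the cycling cells of each library. Their summed level was 21033 CPM (counts per 1000000 UMIs of the class) in cycling against 26141 in non-cycling cells of Sham, 11113.5 against 13766 in MI, and 10258 against 13799 in MI-E. C1qa, which the rule reads, is on this list, so its detection and part of these sums were favoured by the rule. T cell markers came to between 3.997 and 5.96 CPM in cycling cells, with 5 to 8 of 10 genes at 0. B cell markers were at 17.8, 12.3 and 30.8 CPM in cycling against 34.1, 12.6 and 11.8 CPM in non-cycling cells of Sham, MI and MI-E. Of the 8 B cell genes 3 to 4 were at 0 in cycling cells. The genes at 0 include Cd3d, Cd3e, Cd3g and Cd79a, which the rule sets to 0. In MI-E 12 of 266 cycling and 4 of 3241 non-cycling barcodes held at least 5 B cell UMIs. Neutrophil markers, with S100a8 and S100a9 limited by the rule, were at 33.2, 102 and 202 CPM against 50.8, 129 and 237 CPM in non-cycling cells. Of the 10 genes 5 were at 0 in Sham, only Camp in MI and only Ngp in MI-E. At least 5 neutrophil UMIs were held by 0 of 87, 58 of 1026 and 74 of 266 cycling barcodes. Among non-cycling barcodes, at a lower median depth, 13 of 3964, 216 of 3917 and 497 of 3241 held as many.

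Some of the cycling barcodes went against the label. Barcodes with at least 5 UMIs of a fibroblast, endothelial, NK cell or red blood cell list made up 4 of 87 cycling barcodes in Sham (4.598%), 28 of 1026 in MI (2.73%) and 33 of 266 in MI-E (12.4%). Among non-cycling barcodes, at a lower median depth, they made up 2.17%, 1.43% and 2.84%. A fixed count of 5 UMIs is reached more readily in a deeper barcode, and how far depth set these shares was not tested. The 9 fibroblast genes, all of them detected, summed to 1719 CPM in cycling against 181 CPM in non-cycling cells of MI-E, to 181 against 35.5 CPM in MI and to 136 against 33.5 CPM in Sham. With the barcodes that held at least 5 UMIs of a list left out, the cycling values were 24.6, 8.06 and 4.99 CPM. The NK cell list stood at 154 CPM in cycling Sham cells and at 2.49 CPM without those barcodes. Both lists are part of the definition of the barcodes left out, so these falls follow from it. The B cell list, which is not part of it, was then at 11.0 CPM in cycling against 10.1 CPM in non-cycling cells of MI-E. The 10 dendritic cell genes summed to 17.8, 15.6 and 48.0 CPM in cycling against 35.8, 8.73 and 17.3 CPM in non-cycling cells of Sham, MI and MI-E. With the same barcodes left out they were at 13.7 against 34.4, 14.5 against 7.96 and 14.2 against 14.5 CPM, so the MI difference remained. Values without these barcodes are given below beside the results they moved most. Scrublet marked 2 cycling barcodes of Sham as doublets (2.30%), 164 of MI (16.0%) and 1 of MI-E (0.376%), against 4.74%, 7.10% and 1.05% of non-cycling barcodes, and doublets were kept. Sham and MI were marked at an expected rate (9.09% and 7.28% of all barcodes), and MI-E by an automatic threshold (2.29%). These shares are therefore not comparable between libraries, and removing marked doublets takes out almost no cycling barcode of MI-E.

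Cycling cells were the larger cells by RNA. Their median depth over Sham, MI and MI-E was 9617, 17268.5 and 21470 UMIs, against 4434.5, 10270 and 11098 in non-cycling cells, ratios of 2.17, 1.68 and 1.93. They showed a median of 2624, 3679.5 and 4237 genes, against 1433.5, 2624 and 2794. A rule that asks for 2 UMIs takes deep cells more readily, so the depth gap and the rule cannot be told apart, and levels below are relative to the total of a class.

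Cycling cells made up 2.06% of C1q macrophages in Sham (87 of 4223, interval 1.65 to 2.54), 18.1% in MI (1026 of 5658, 17.1 to 19.2) and 6.73% in MI-E (266 of 3954, 5.97 to 7.55). The share in MI was 8.80-fold that in Sham (7.10 to 10.9) and 2.70-fold that in MI-E (2.37 to 3.07), while MI-E was 3.27-fold above Sham (2.57 to 4.14). The order of the libraries was thus MI, MI-E, Sham, with no overlap of the counting intervals. When every cell was thinned to 3000 UMIs, the shares were 1.23% (39 of 3168), 7.70% (386 of 5015) and 2.32% (79 of 3405), and the same order held. Thinned MI then stood 6.25-fold above Sham (4.51 to 8.66) and MI-E 1.88-fold above it (1.29 to 2.76). Below 3000 UMIs, and so left out, were 3, 10 and 0 cycling cells and 1094, 114 and 109 non-cycling cells of Sham, MI and MI-E. The C1q, neutrophil and lymphocyte conditions were then applied anew to the thinned counts, so barcodes could also leave or enter the set. The thinned shares are therefore of a different set of cells from the shares on all UMIs.

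**Figure D1:**
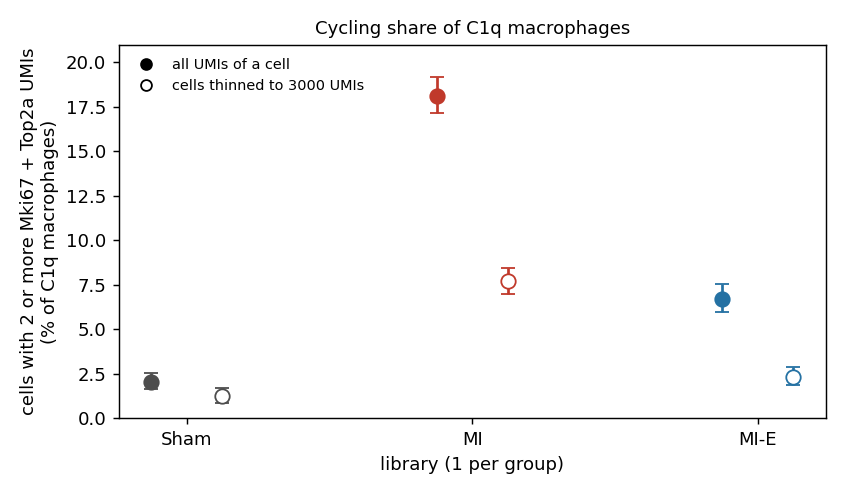
Share of C1q macrophages with at least 2 UMIs of Mki67 and Top2a (y axis, %) in each library (x axis). Filled points use all UMIs of a cell, and open points cells thinned to 3000 UMIs with the rule applied to the thinned counts. Bars are exact binomial intervals for counting error. The MI points, 18.1% and 7.70%, lie above those of both other libraries.

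Neutrophils do not divide once mature, so they served as background for stray Mki67 and Top2a molecules. Of cells with at least 3% of UMIs from S100a8 and S100a9 and none from C1q genes, 2 of 318 held 2 or more such UMIs in Sham (0.629%), 0 of 105 in MI (which allows up to 2.86%) and 14 of 912 in MI-E (1.54%), at median depths of 1786.5, 1930 and 2156.5 UMIs. Few were deep enough for thinning, and then 1 of 38, 0 of 31 (which allows up to 9.68%) and 9 of 274 did. The last is 3.28% (1.51 to 6.14), no lower than the 2.32% of thinned MI-E macrophages. Thinned lymphocytes held 2 or more such UMIs in 3 of 718 cells of Sham (0.418%), 3 of 34 of MI (8.82%, 1.86 to 23.7) and 3 of 140 of MI-E (2.14%, 0.444 to 6.13). By share alone, thinned macrophages of no library stood clear of both backgrounds: the few neutrophils and lymphocytes of MI allow shares as high as its 7.70%, and Sham macrophages, at 1.23%, lay above Sham lymphocytes but within the range that 38 neutrophils allow. Immature neutrophils in this gate, and lymphocytes that divide, were not looked for.

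The cells near the threshold showed how much of the class it decides. Exactly 2 UMIs were held by 35 of 87 cycling cells in Sham, 207 of 1026 in MI and 91 of 266 in MI-E. In cells thinned to 3000 UMIs the median number of 68 G2 and mitosis genes seen was 5 in cells with exactly 2 UMIs in each library, as it was in cells with 1 UMI. It was 13, 16 and 15 in Sham, MI and MI-E cells with 3 or more UMIs, and 4 in non-cycling cells of each library. The means of mitosis genes with exactly 2 UMIs were 5.47, 6.63 and 5.74, against 4.57, 5.07 and 4.90 with 1 UMI. Of 34 replication genes the means were 2.74, 2.91 and 2.37 against 1.37, 1.84 and 1.43. Cells with exactly 2 UMIs thus matched cells just outside the class in the median of mitosis genes and showed more division genes on average. They were a larger part of the cycling class in Sham and MI-E than in MI.

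The rule genes themselves are given as a description. Mki67 stood at 375 CPM in cycling cells of Sham, 257 in MI and 192 in MI-E, and Top2a at 330, 286 and 239 CPM. Both are 0 in non-cycling cells because the rule sets them so. A Mki67 UMI was seen in 90.8%, 93.9% and 86.5% of cycling cells, and a Top2a UMI in 58.6%, 81.1% and 74.8%. The median cycling cell held 3, 7 and 4 UMIs of the pair. C1qa was at 4930, 2626 and 2188 CPM in cycling cells and at 5609, 2481 and 2368 CPM in non-cycling ones, so the complement genes that define the class were at similar levels in both.

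Other division genes moved with the rule genes, as a selection on Mki67 and Top2a would bring with it, and these counts support nothing beyond the description. Of genes with at least 5 CPM on average, 17.1% were at least 1.5-fold higher and 6.28% at least 1.5-fold lower in cycling cells of Sham. In MI the shares were 9.26% and 1.64%, and in MI-E 17.9% and 3.06%. Against these, all 30 measured of 34 DNA replication genes were at least 1.5-fold higher in Sham, 32 of 32 in MI and 31 of 32 in MI-E, with median log2 ratios of 2.53, 2.21 and 2.52. Of the G2 and mitosis genes 61 of 63, 64 of 66 and 62 of 65 were higher, with medians of 3.95, 3.50 and 3.58. Replication-dependent histone genes were higher for 29 of 32, 25 of 27 and 13 of 15 measured members, with 1 lower in each library. How completely the library kit captures histone transcripts was not tested. The median over all genes was 0.16, 0.06 and 0.13. Scaled by the median of ratios in place of totals, which lowers every log2 ratio by 0.19, 0.12 and 0.26, higher and lower genes numbered 926 and 966 in Sham (1480 and 544 by totals), 618 and 273 in MI (772 and 137) and 999 and 939 in MI-E (1572 and 268).

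Single genes showed the size of the contrast. Ube2c, the ubiquitin carrier of the anaphase-promoting complex, was at 193 CPM in cycling against 1.42 CPM in non-cycling cells of Sham. It was at 260 against 3.67 CPM in MI and at 163 against 2.17 CPM in MI-E, ratios of 136 (89.4 to 214), 70.9 (60.6 to 83.4) and 75.4 (60.4 to 95.3). Pclaf stood at 159, 349 and 227 CPM against 0.493, 6.43 and 2.60 CPM. Both were low in every non-cycling class and high in every cycling one. Birc5, which encodes survivin of the chromosomal passenger complex, was at 273, 300 and 186 CPM against 1.42, 7.62 and 3.54 CPM. Prc1 was at 126, 99.5 and 65.3 CPM against 0.603, 1.83 and 1.30 CPM, and Cenpf at 122, 96.1 and 53.2 CPM against 1.59, 1.24 and 0.586 CPM. The linker histone gene Hist1h1b was at 117, 142 and 80.9 CPM against at most 1.00 CPM. In MI-E each of these was lowest of the 3 libraries except Pclaf. Mitosis genes under 1.5-fold in some library were Pttg1 (log2 ratios of -0.21, -0.03 and -0.09), a securin, the tubulin gene Tubb4b in Sham (0.58), Lmnb1 in MI and MI-E (0.36 and -0.03), a lamin, and Bub3 in MI-E (0.41), a spindle checkpoint gene.

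Replication genes differed in the level they kept in non-cycling cells. Pcna, the sliding clamp of replication and repair, was at 308 against 176 CPM in Sham, 313 against 139 CPM in MI and 318 against 146 CPM in MI-E. Mcm6, a subunit of the replicative helicase, was at 97.3, 103 and 108 CPM against 12.1, 29.9 and 20.9 CPM. The levels of both in cycling cells were close across libraries, and what varied was the non-cycling level. Nucleotide synthesis genes were at least 1.5-fold higher for 14 of 19, 18 of 20 and 17 of 20 members, led by the ribonucleotide reductase subunit Rrm2 and the thymidine kinase Tk1 with log2 ratios between 4.01 and 4.89. Among 450 genes at least 1.5-fold higher in all 3 libraries, of 7745 measured in all, 329 were in none of the division lists and 22 genes were lower in all. Ezh2, the histone methyltransferase of Polycomb, stood at 92.5, 87.2 and 88.2 CPM against 13.04, 13.4 and 13.5 CPM, the same picture in each library. Hells was at 58.1, 52.9 and 51.3 CPM against 4.16, 10.2 and 4.82 CPM, and the chromatin protein gene Hmgb1 at 802, 810 and 769 CPM against 294, 293 and 264 CPM.

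The G1 machinery was less uniform. Of G1 cyclins, their kinases and inhibitors, E2F and Myc factors, 13 of 28, 12 of 29 and 18 of 30 measured genes were at least 1.5-fold higher, with median log2 ratios of 0.48, 0.47 and 0.94. The MI-E median was 0.55 without other-lineage barcodes. E2f1 was at 34.4, 36.4 and 38.5 CPM against 10.3, 12.9 and 12.98 CPM, and the cyclin gene Ccne2 had log2 ratios of 3.36, 3.40 and 3.57. Cdk4, the kinase of D cyclins, was at 152, 146 and 156 CPM against 64.0, 84.8 and 77.1 CPM. These genes were alike across libraries, while Ccnd1, the D cyclin that answers growth signals, was not. It was at 86.6 against 85.9 CPM in Sham, 102 against 78.3 CPM in MI and 193 against 91.0 CPM in MI-E, ratios of 1.01 (0.786 to 1.27), 1.30 (1.23 to 1.38) and 2.12 (1.99 to 2.27). Its log2 ratio in MI-E was 1.08, and 1.02 without other-lineage barcodes. Myc was at 15.4 against 22.1 CPM in Sham and near its non-cycling level in MI (11.2 against 9.19 CPM). In MI-E it was at 19.5 against 8.97 CPM, and its log2 ratio there went from 1.04 to 0.39 without those barcodes. Cdkn1a, the p21 inhibitor of cyclin-dependent kinases, was at 1210 against 1094 CPM in Sham but lower in cycling cells of MI, 657 against 975 CPM, and of MI-E, 547 against 902 CPM. Cdkn2c, another inhibitor, went the other way, with ratios of 1.85 (1.12 to 2.89), 9.86 (8.17 to 11.96) and 8.65 (6.75 to 11.1).

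**Figure D2:**
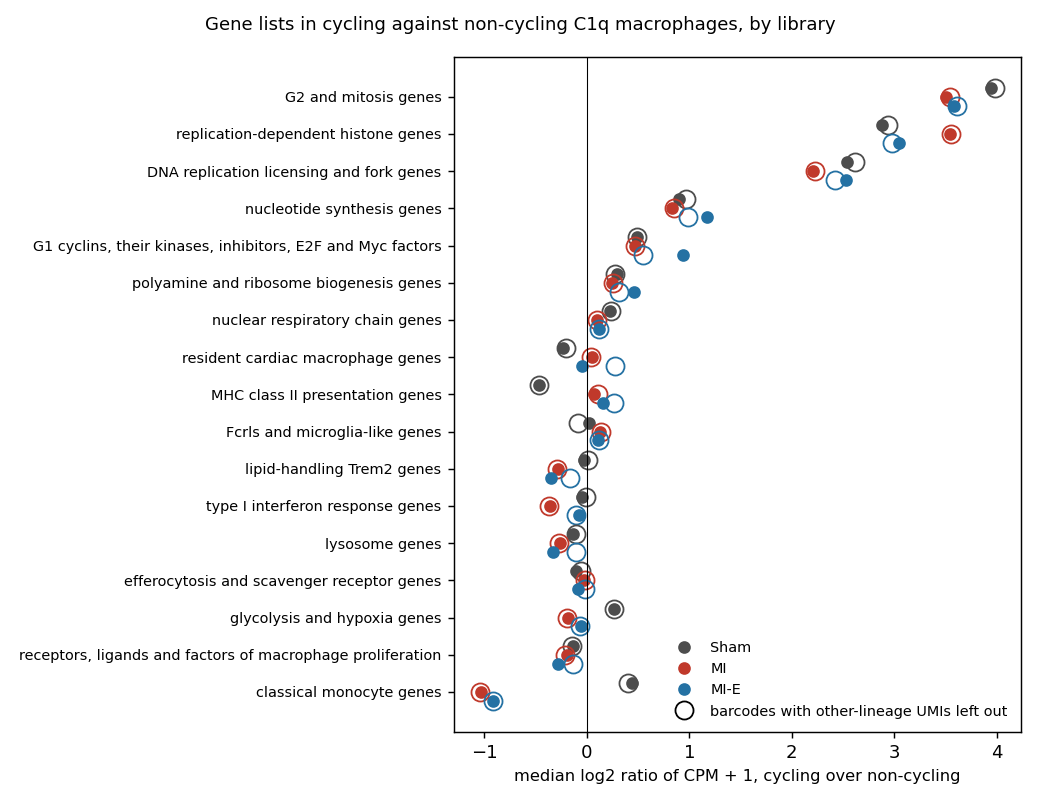
Median log2 ratio of CPM + 1 in cycling over non-cycling C1q macrophages (x axis) for each gene list (y axis), by library. Filled points use all barcodes and open points leave out barcodes with other-lineage UMIs. The lists of mitosis, histone, replication and nucleotide synthesis genes lie between 0.83 and 3.95, and classical monocyte genes lie at -1.04 in MI and -0.92 in MI-E.

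The question the rule asks is which macrophage programme the dividing cells carry. In MI and MI-E they carried less of the classical monocyte programme than their non-dividing neighbours. In MI 11 of 16 monocyte genes were at least 1.5-fold lower and 0 higher, with a median log2 ratio of -1.04. In MI-E 12 of 16 were lower and 1 higher, with a median of -0.92, and without other-lineage barcodes 11 were lower and 0 higher, with the same median. In Sham, where the list stood low in both classes, 5 of 12 measured genes were higher and 3 lower, with a median of 0.44.

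Ly6c2, a surface protein of inflammatory monocytes, was at 35.4 CPM in cycling against 120 CPM in non-cycling cells of MI, 3.39-fold lower (3.13 to 3.68). In MI-E it was at 107 against 331 CPM, 3.10-fold lower (2.87 to 3.36). In Sham it was at 8.30 against 2.85 CPM, but the 7 UMIs behind the cycling value came from 1 cell. Plac8, a monocyte gene, was at 137 against 413 CPM in MI and at 298 against 729 CPM in MI-E, and Chil3, a chitinase-like gene, at 129 against 290 CPM and at 300 against 752 CPM. Both were lower in cycling cells of MI and MI-E, by between 2.26-fold and 3.01-fold. Ccr2, the receptor that brings monocytes out of the marrow, was lower by 1.56-fold in MI (1.48 to 1.64) and by 1.89-fold in MI-E (1.73 to 2.07). In Sham it was higher, at 51.0 against 28.9 CPM (1.77-fold, 1.26 to 2.41). Thbs1, Ms4a4c and F10, an adhesive glycoprotein, a membrane protein and a clotting factor, were lower by between 2.03-fold and 2.84-fold in cycling cells of MI and MI-E. S100a4, of the same list, was not: its log2 ratios over Sham, MI and MI-E were 0.89, -0.10 and -0.29.

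**Figure D3:**
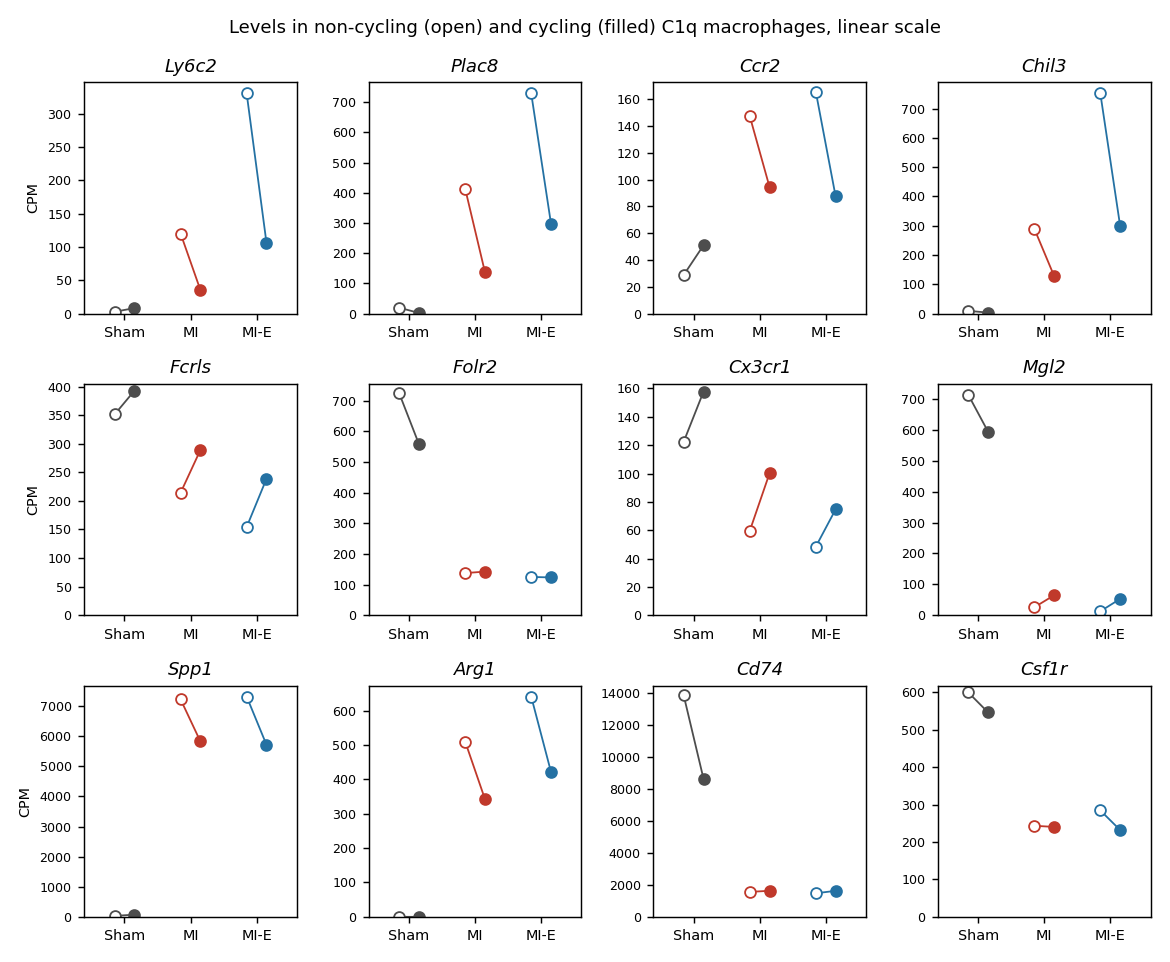
Level (y axis, CPM, linear scale from 0) of 12 programme genes in non-cycling (open) and cycling (filled) C1q macrophages of each library (x axis); a line joins the classes of 1 library. Ly6c2, Plac8, Ccr2 and Chil3 are lower in cycling cells of MI and MI-E, while Fcrls, Cx3cr1 and Mgl2 are higher there.

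Resident genes as a list were near the level of non-cycling cells. Their median log2 ratio was -0.23 in Sham (0 of 21 at least 1.5-fold higher and 3 lower), 0.05 in MI (1 of 17 higher and 1 lower) and -0.05 in MI-E (2 of 18 higher and 1 lower). Without other-lineage barcodes the MI-E median was 0.27, with 4 higher and 1 lower. Folr2, a folate receptor, was at 559 against 725 CPM in Sham, 142 against 138 CPM in MI and 123 against 125 CPM in MI-E. Lyve1, a hyaluronan receptor, was at 293 against 319, 22.3 against 21.4 and 11.3 against 15.3 CPM. Neither separated the classes in MI, and both were far lower in MI and MI-E than in Sham in cycling and non-cycling cells alike. Timd4, a receptor for phosphatidylserine on dead cells, was at 61.7 against 86.6 CPM in Sham, 2.89 against 2.17 CPM in MI and 5.16 against 2.35 CPM in MI-E, the last from 32 UMIs. Mrc1, the mannose receptor, was at 780 against 730, 405 against 320 and 363 against 304 CPM. Hpgd, which breaks down prostaglandins, was at 371 against 421 CPM in Sham, 19.7 against 12.04 CPM in MI and 11.9 against 5.89 CPM in MI-E.

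Depth moved with this list. Among cells of 5000 to 20000 UMIs only, the resident median was 0.40 in MI and 0.90 in MI-E, against 0.05 and -0.05 over all cells. How far cell size set the resident value was not tested.

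A few genes outside the resident and monocyte lists were higher in cycling cells of MI and MI-E. Over all measured genes 9.26% in MI and 17.9% in MI-E were at least 1.5-fold higher, which Fcrls in MI was not. Fcrls, an Fc receptor-like gene shared with microglia, was at 393 against 351 CPM in Sham (1.12-fold, 0.998 to 1.25), 289 against 214 CPM in MI (1.35-fold, 1.30 to 1.39) and 238 against 154 CPM in MI-E (1.55-fold, 1.46 to 1.64). Cx3cr1, the fractalkine receptor, was at 158 against 122, 100 against 59.5 and 74.6 against 48.3 CPM, and its Sham log2 ratio went from 0.36 to -0.10 without other-lineage barcodes. Mgl2, a galactose-binding lectin, was at 594 against 714 CPM in Sham but at 64.7 against 25.7 CPM in MI (2.52-fold, 2.32 to 2.73) and 53.0 against 12.7 CPM in MI-E (4.17-fold, 3.62 to 4.80). All 3 genes were thus higher in cycling cells of MI and MI-E, and below the level they had in cycling cells of Sham. The list of Fcrls and other microglia genes as a whole had medians of 0.02, 0.13 and 0.11, with 0, 2 and 3 members at least 1.5-fold higher and 2, 1 and 1 lower. One of the higher members in MI and MI-E was the matrix gene Sparc, at 969 against 117 CPM in MI-E. Its log2 ratio there went from 3.04 to 0.04 without other-lineage barcodes.

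Of MHC class II genes 2 of 9 were at least 1.5-fold lower in dividing cells of Sham, and 0 of 6 passed 1.5-fold in MI or MI-E. A difference between libraries was not tested. The invariant chain gene Cd74 was at 8654 against 13875 CPM in Sham (1.60-fold lower, 1.57 to 1.64), 1634 against 1563 CPM in MI and 1631 against 1477 CPM in MI-E. H2-Aa was at 2143 against 3178, 453 against 428 and 550 against 489 CPM, and H2-Eb1 at 3423 against 4731, 625 against 506 and 599 against 446 CPM. The list medians for Sham, MI and MI-E were -0.47, 0.07 and 0.16. Among cells of 5000 to 20000 UMIs they were -0.12, 0.25 and 0.58, so all 3 depended on which depths were compared. Clec10a and Cd209f, lectins of the resident list, were the lowest of it in Sham, at 30.8 against 75.4 CPM and at 1.19 against 21.3 CPM, the second from 1 UMI. Retnla, a product of alternative activation, was at 320 against 665 CPM in Sham and near 0 elsewhere.

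The lipid-handling genes of infarct macrophages were present in dividing cells of MI and MI-E, mostly within 1.5-fold of the non-cycling level. In MI Spp1, which encodes osteopontin, was at 5826 against 7224 CPM, Trem2 at 583 against 738, Gpnmb at 213 against 311 and Arg1, arginase, at 342 against 510 CPM. In MI-E they were at 5719 against 7320, 483 against 646, 220 against 340 and 422 against 641 CPM. In Sham Arg1 and Gpnmb had 0 UMIs in cycling cells, Trem2 was at 211 against 217 CPM, and Spp1 was at 73.5 against 32.5 CPM. The list medians for Sham, MI and MI-E were -0.03, -0.28 and -0.35, with 2 of 18, 0 of 20 and 1 of 20 at least 1.5-fold higher and 2, 1 and 5 lower. Without other-lineage barcodes the MI-E median was -0.17 with 0 lower, so part of its size moved with them. Apoe, the lipid carrier, was lower in cycling cells of each library, at 16590 against 27073, 6306 against 9888 and 5651 against 8950 CPM. The lysosomal proteases Ctss and Ctsl were lower as well, by between 1.38-fold and 1.79-fold, and the lysosome list had medians of -0.13, -0.27 and -0.33. Without other-lineage barcodes the lysosome median of MI-E was -0.11, and the log2 ratio of Apoe there went from -0.66 to -0.40.

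Genes that regulate macrophage growth were read next, from the M-CSF receptor to its factors in the nucleus. Csf1r, the receptor for the growth factor M-CSF, was at 547 against 600 CPM in Sham, 241 against 244 CPM in MI and 232 against 285 CPM in MI-E, where its log2 ratio of -0.29 was -0.04 without other-lineage barcodes. Maf, a macrophage transcription factor, was at 370 against 430, 197 against 209 and 173 against 194 CPM, and its MI-E log2 ratio of -0.16 was 0.12 without other-lineage barcodes. Cebpb was at 1686 against 1718, 920 against 1277 and 951 against 1450 CPM, and Cebpa at 84.2 against 113, 60.0 against 85.9 and 44.5 against 79.5 CPM. Csf1 itself was at 45.0 against 13.7 CPM in MI-E, where its log2 ratio went from 1.65 to 0.26 without other-lineage barcodes. Over the list of 24 receptors, ligands and factors of macrophage proliferation the medians were -0.13, -0.20 and -0.28, with 1, 0 and 1 members higher and 2, 1 and 4 lower. Without other-lineage barcodes the MI-E median was -0.14, with 0 higher and 1 lower.

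Other programmes varied by library. Glucocorticoid target genes had medians of -0.62, -0.26 and -0.05, with 5 of 9 lower in Sham, and dissociation stress genes medians of -0.36, -0.18 and 0.19, with 4 of 19 lower in Sham. Chemokine receptor and adhesion genes had medians of 0.31, -0.21 and -0.40, with 6 of 15 lower and 3 higher in MI-E, and 2 lower and 1 higher there without other-lineage barcodes. Respiratory chain genes had medians of 0.23, 0.10 and 0.12 with 0 of 21 past 1.5-fold in any library, and glycolysis and hypoxia genes medians of 0.27, -0.18 and -0.06. Type I interferon genes had medians of -0.05, -0.36 and -0.08, with 2, 1 and 1 members higher and 3, 3 and 2 lower of 19, 21 and 21. Within that list Irf7, the master factor of the response, was at 89.0 against 183 CPM in MI and 215 against 373 CPM in MI-E, while the chemokine gene Cxcl10 was higher in cycling cells of all 3 libraries, at 667 against 466, 347 against 211 and 385 against 221 CPM. Polyamine and ribosome biogenesis genes had medians of 0.29, 0.25 and 0.46, the last 0.31 without other-lineage barcodes.

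The same contrast was read cell by cell after thinning each cell to 3000 UMIs and applying the rule to the thinned counts. In MI 10.9% of macrophages with a Fcrls UMI were cycling (220 of 2010, 9.61 to 12.4) against 5.52% of those without (166 of 3005, 4.73 to 6.40). In MI-E the shares were 4.53% (43 of 949) and 1.47% (36 of 2456), and in Sham 1.39% (25 of 1795) and 1.02% (14 of 1373). Cells with a Ccr2 or Ly6c2 UMI showed the opposite: 4.97% were cycling in MI (87 of 1752) against 9.16% without (299 of 3263), and 1.14% in MI-E (20 of 1759) against 3.58% (59 of 1646). The intervals of the classes with and without did not overlap in MI or MI-E for either marker, and in Sham they did for both. Leaving out other-lineage barcodes gave 10.9% and 5.53% for Fcrls in MI, 4.55% and 1.39% in MI-E, and 1.10% and 3.54% for Ccr2 or Ly6c2 in MI-E.

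Cells with Timd4, Lyve1 or Folr2 cycled at 8.62% against 7.31% without in MI, at 3.13% against 2.07% in MI-E and at 1.12% against 1.43% in Sham, all with overlapping intervals. The same held for H2-Aa, at 6.85% against 7.95% in MI and 2.45% against 2.27% in MI-E. For Gpnmb the shares were 6.05% against 8.48% in MI and 1.14% against 2.91% in MI-E, and for Spp1 7.16% against 11.5% and 2.14% against 4.30%. For Trem2 they were 7.03% against 10.1% and 2.30% against 2.37%, and for Arg1 6.07% against 8.82% and 1.70% against 2.76%. In MI cells with each of these 4 infarct markers had the lower cycling share, with intervals that did not overlap. In MI-E the intervals were apart for Gpnmb only, and overlapped for Spp1, Trem2 and Arg1. In Sham 3 of 105 cells with Spp1 cycled (2.86%) against 1.18% without, with overlapping intervals. A marker UMI shows expression only where it exceeds stray RNA. Fcrls was seen in 0 of 34 thinned lymphocytes of MI (which allows up to 8.82%) and in 2.03% of those of MI-E, against 34.6% and 24.1% of non-cycling and 50.6% and 39.9% of cycling macrophages. Spp1 was seen in 44.1% and 58.1% of lymphocytes, so a Spp1 UMI marks a cell poorly. Ccr2 was seen in 11.8% of thinned lymphocytes of MI (4 of 34) and 23.6% of those of MI-E, against 22.3% and 25.2% of cycling and 30.4% and 33.9% of non-cycling macrophages. Ly6c2 was seen in 29.4% of thinned lymphocytes of MI (10 of 34) and 17.6% of those of MI-E. In macrophages it was seen in 6.30% and 16.5% of cycling and 17.2% and 37.3% of non-cycling cells. Lymphocytes can make Ccr2 and Ly6c2 themselves, so neither has a clean background here. A Ccr2 UMI in MI-E lies close to the lymphocyte share, and the Ly6c2 shares of both macrophage classes of MI lie below it. Median depths were 2913 UMIs in MI lymphocytes and 2628 in MI-E lymphocytes before thinning.

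**Figure D4:**
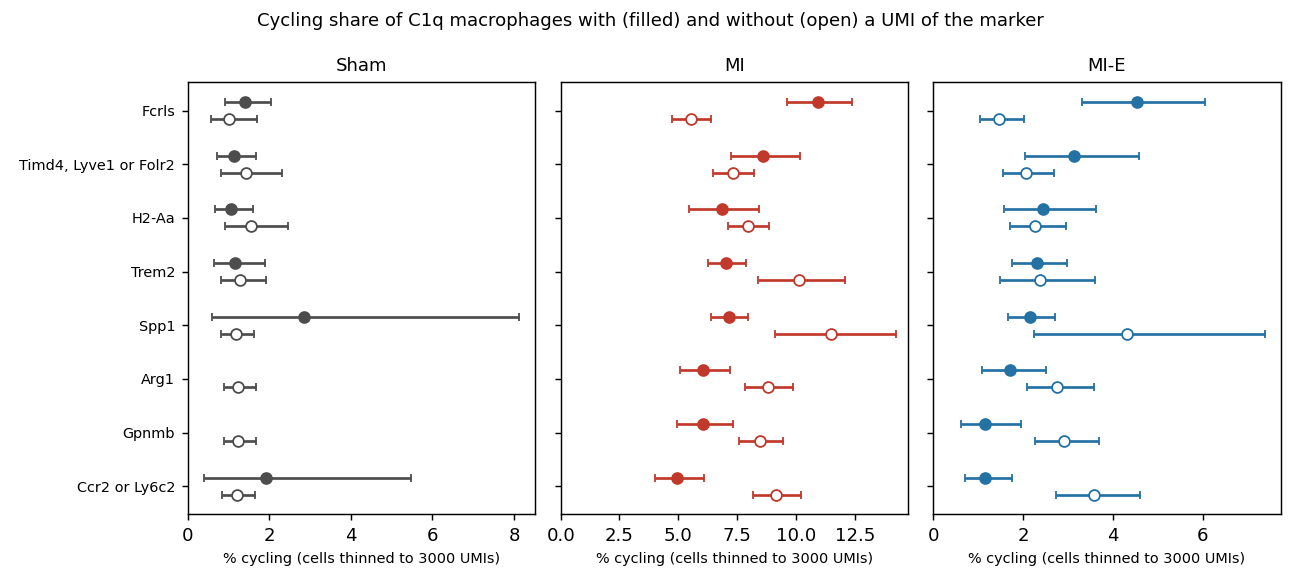
Cycling share (x axis, %, cells thinned to 3000 UMIs, a separate scale for each library) of C1q macrophages with (filled) and without (open) a UMI of each marker (y axis), with exact binomial intervals; classes under 50 cells are not drawn. In MI cells with Fcrls lie at 10.9% against 5.52% without, and cells with Ccr2 or Ly6c2 at 4.97% against 9.16%.

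Markers were also counted within the dividing class, here the cells that met the rule on all their UMIs and were then thinned (84, 1016 and 266 cells). Of these in Sham 69.0% held a resident marker (Timd4, Lyve1 or Folr2) and no monocyte marker, 8.33% a monocyte marker (Ccr2 or Ly6c2) only, 2.38% both and 20.2% neither. In MI the shares were 24.8%, 20.7%, 5.91% and 48.6%, and in MI-E 18.8%, 29.3%, 5.64% and 46.2%. Non-cycling cells of MI-E held a monocyte marker only in 47.4% and a resident marker only in 12.6%, and those of MI in 31.3% and 19.96%. In both libraries the monocyte-only share was lower and the resident-only share higher among dividing cells. The share with neither was higher among them too, at 48.6% against 41.2% in MI and 46.2% against 31.6% in MI-E. The class with neither was the largest among dividing cells of MI and MI-E, at a depth where 1 missing UMI decides it.

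Dividing cells changed between the libraries along with the macrophages around them. In MI over Sham, 20.7% of 8716 genes were at least 1.5-fold higher and 21.9% at least 1.5-fold lower in cycling cells. Of 19 resident genes 17 were lower, with a median log2 ratio of -2.38 in cycling and -2.71 in non-cycling cells. MHC class II genes were lower for 8 of 8 measured, with medians of -2.25 and -2.86. Of 15 classical monocyte genes 13 were higher, with a median of 2.05 in cycling cells against 3.52 in non-cycling cells, and 3.29 in cycling cells without other-lineage barcodes. The Trem2 list had medians of 1.29 and 1.26, with 12 of 20 higher. Replication and mitosis genes had medians of 0.11 and -0.02, with 7 higher and 3 lower, and 12 higher and 7 lower. Cell by cell after thinning, the median cycling cell showed 7.5 mitosis genes in Sham and 14 in MI, and 2 and 4 replication genes. The median of ratios raises these log2 ratios by 0.13 and makes 2311 genes higher and 1528 lower in place of 1804 and 1912. Both comparisons use the same libraries, and the classes were not tested against each other.

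Large differences of cycling cells between MI and Sham included infarct, resident and heat shock genes. Arg1 had 0 UMIs in 87 Sham cells and 342 CPM in MI, at least 96.2-fold higher against a floor of 3 counts over the class. Gpnmb, 0 against 213 CPM, was at least 59.9-fold higher. Spp1 went from 73.5 to 5826 CPM, 79.2-fold (61.8 to 103), and Fabp5, a fatty acid carrier, from 58.1 to 2748 CPM. Of these, Gpnmb, Spp1 and Fabp5 are on the list of lipid-handling Trem2 genes and Arg1 on that of repair genes. Retnla went from 320 to 0.263 CPM, Timd4 21.3-fold lower in MI (14.3 to 31.7), and Ccl24, an eosinophil chemokine, 24.2-fold lower (20.3 to 28.9). Hspa1a and Hspa1b, heat shock genes that tissue dissociation induces, were at 2325 and 1649 CPM in Sham and 89.8 and 34.6 CPM in MI. The stress list they belong to had a median of -1.54 in cycling and -1.88 in non-cycling cells, and its part in the other differences was not tested.

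**Figure D5:**
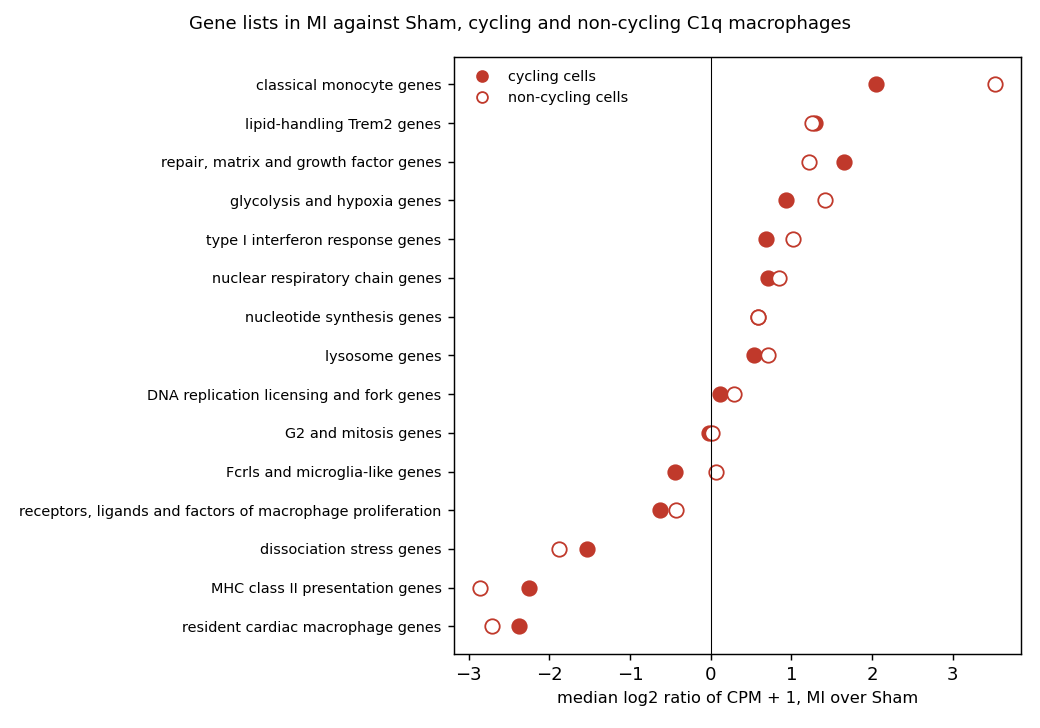
Median log2 ratio of CPM + 1, MI over Sham (x axis), for gene lists (y axis) in cycling (filled) and non-cycling (open) C1q macrophages. Both classes lie on the same side for the resident (-2.38 and -2.71), MHC class II (-2.25 and -2.86) and classical monocyte lists (2.05 and 3.52).

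In MI-E over MI, 11.0% of 8869 genes were higher and 2.24% lower in cycling cells. With counts scaled by the median of ratios instead of totals, 630 were higher and 544 lower in place of 973 and 199. Without other-lineage barcodes 394 were higher. The 10 highest genes included Cxcl5, Ptx3, Mmp3 and Loxl1, and all 10 shrank with those barcodes left out. Cxcl5 went from a log2 ratio of 5.74 to 0.91 and Mmp3 from 4.97 to 0.13. Timp1 was at 1001 CPM in cycling cells of MI-E and at 72.4 CPM without them, against 79.1 CPM in MI. These values moved with barcodes that carry UMIs of a second lineage, and what remained without them, as for Cxcl5, was not tested.

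Histone genes were the lowest in that comparison. Of 30 measured 24 were lower in cycling cells of MI-E than of MI. The median was -0.93, and -1.13 without other-lineage barcodes, against -0.09 in non-cycling cells, where only 4 of 60 were measured. Hist1h2ap was at 298 CPM in MI against 103 CPM in MI-E (2.89-fold lower, 2.66 to 3.14), and at 111 CPM in Sham. Hist1h2ae was at 211 and 86.9 CPM and Hist1h4d at 114 and 52.4 CPM. In thinned cells the mean number of 60 histone genes seen per cycling cell was 2.89 in MI, 1.39 in MI-E and 1.96 in Sham, and 31.2%, 47.0% and 50% of cycling cells showed none. Capture of histone transcripts by the kit was not tested, so these values describe captured UMIs and not histone expression as such. Mitosis genes had a median of -0.24 between MI-E and MI with 11 of 68 lower. The share of cells with exactly 2 rule UMIs was higher in MI-E than in MI, and its part in this was not tested. Fkbp5, a target of glucocorticoids, was at 64.3 and 27.6 CPM in cycling cells of MI and MI-E, and at 57.2 and 11.1 CPM in non-cycling ones.

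Interferon genes were higher in cycling cells of MI-E than of MI for 12 of 21 members and lower for 0, with a median of 0.73, also without other-lineage barcodes, and of 0.49 in non-cycling cells. Irf7 went from 89.0 to 215 CPM (2.42-fold, 2.25 to 2.60). Classical monocyte genes were higher for 7 of 15 with a median of 0.58, and Ly6c2 was at 35.4 and 107 CPM (3.01-fold, 2.70 to 3.36). Resident genes had a median of -0.28, and -0.01 without other-lineage barcodes, and MHC class II genes one of 0.07 with 0 of 6 past 1.5-fold. In MI-E over Sham, which uses the same libraries again, 29.1% of 9111 genes were higher and 17.9% lower in cycling cells. There 17 of 19 resident genes were lower, 13 of 16 classical monocyte genes higher, and 23 of 32 histone genes lower.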

How the data were processed

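Single-cell RNA was read from CD45-sorted heart leukocytes with the 10x Genomics 3' kit v3.1, per the labels' protocols. Cell Ranger 5.0.1 and mm10 are named in the submitters' processing notes. The deposited files hold raw UMI counts for 32285 genes in each called barcode, per the file headers, and no normalized values. For the gene annotation no release is named in those notes or the labels.

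The membership rule was applied in Python 3.11.15 with NumPy 2.4.6, pandas 2.3.3 and SciPy 1.17.1, and figures were drawn with matplotlib 3.10.9. UMIs were summed per class and library and scaled to CPM of the class total. Log2 ratios are of CPM + 1, genes had to average 5 CPM or more over both classes compared, and 1.5-fold counts as higher or lower. Folds are ratios of CPM with an exact binomial-based interval for 2 Poisson counts, shares have Clopper-Pearson intervals and share ratios log intervals, all at 95% and for counting error only. A class with 0 UMIs was set to 3 counts over the class for a lower bound. With 1 library per group neither tests nor standard errors were computed. Cells were thinned to 3000 UMIs with a fixed seed. Recovery of known folds and interval coverage were tested on simulated independent Poisson counts, the model that the intervals assume. That test therefore cannot show coverage in these data, where UMIs of a gene can cluster in single cells, and the intervals leave such clustering out.

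The members, the gene lists, the gate for background neutrophils and the tests were chosen with earlier results of these data known. Named genes are those past 50 CPM and 5% of cells with the largest differences shared by all 3 libraries (8 in and 15 outside the division lists, and 15 lower), the 10 highest and lowest between libraries, the 2 highest and 2 lowest of each list, and the programme markers; genes of other cell types, ribosomal, mitochondrial and predicted genes were left out. Other members of the lists are named where a list's count turns on them. Doublets were not removed. Scrublet in Scanpy 1.11.5 marked them for an alternative, at an expected 0.8% per 1000 barcodes where its automatic threshold failed, in Sham and MI. Barcodes of other lineages were defined after seeing the data. Promoters came from the RefSeq table for GRCm38.p6.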

Additional observations from a re-analysis of the deposited data

How the results depend on the processing

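No paired analysis was possible because each group has 1 library and the labels give no replicates. Leaving out a library would leave a group empty. Of 231 values of the main results under the alternatives, 155 stayed within counting error or within 1.5 times the count. Of further values, for single genes and other lists, 4091 stayed, 1154 moved and 9 changed sign. Those that moved were most numerous with scaling by the median of ratios (346, against 240 that stayed). Among cells of 5000 to 20000 UMIs 278 moved and 300 stayed. The 1154 are not listed singly, and the 76 main values that moved follow. The cause was not tested except where fewer UMIs, cells or genes enter by construction. With a minimum of 1 Mki67 or Top2a UMI the cycling shares of Sham, MI and MI-E were 6.13%, 30.8% and 18.0%, and with a minimum of 3 UMIs 1.23%, 14.5% and 4.43%. Thinned to 3000 UMIs they were 1.23%, 7.70% and 2.32%, thinned with a minimum of 1 UMI 4.70% in Sham and 16.5% in MI, and without Scrublet doublets 16.8% in MI. The ratio of MI to Sham was 5.02 with a minimum of 1 UMI, 11.8 with 3, 6.25 thinned and 3.51 thinned with 1. That of MI-E to MI was 0.586, 0.306 and 0.301 for the first 3 of these, and that of MI-E to Sham 1.88 thinned and 1.38 thinned with 1. With a pseudocount of 10 CPM, genes higher and lower in cycling cells numbered 717 and 157 in Sham, 461 and 51 in MI, and 964 and 121 in MI-E, those between MI and Sham 1169 and 1201, between MI-E and MI 529 and 71, and lower in MI-E than Sham 1049; the classical monocyte medians were -0.64 in MI and -0.72 in MI-E. With no filter on low genes the counts were 2778 and 2209 in Sham, 1258 higher in MI, 3098 higher in MI-E, 3126 and 3691 between MI and Sham, 2213 and 408 between MI-E and MI, and 4524 and 3067 between MI-E and Sham; the MHC class II median in MI was 0.12. Scaled by the median of ratios, which shifted all genes by -0.19, -0.12 and -0.26 within Sham, MI and MI-E, the counts were 926 and 966 in Sham, 273 lower in MI, 999 and 939 in MI-E, and 630 and 544 between MI-E and MI. The MHC class II medians were then -0.66, -0.049 and -0.12, the classical monocyte medians -1.15 in MI and -1.19 in MI-E, and the resident median of MI-E -0.31. Among cells of 5000 to 20000 UMIs the MHC class II medians were -0.12, 0.25 and 0.58, the resident medians 0.40 in MI and 0.90 in MI-E, the classical monocyte median of Sham 0.048, and 550 genes were lower in MI-E than in MI. Without Scrublet doublets, and likewise with a minimum of 3 UMIs, the classical monocyte median of MI was -1.19. With that minimum 207 genes were lower in MI and 472 in MI-E, and the MHC class II medians were 0.16 and 0.021. Without barcodes of other lineages, an alternative chosen after seeing the data, 916 genes were higher and 170 lower in MI-E, 394 were higher in MI-E than in MI, and the resident and MHC class II medians of MI-E were 0.27 and 0.26. A C1q minimum of 10 UMIs, a neutrophil limit of 0.1% and scaling outside the division lists moved none of the main values. Values past 1.5-fold that changed sign were log2 ratios of cycling over non-cycling cells among cells of 5000 to 20000 UMIs, for Fn1 in Sham (-0.077), Sparc in MI (-0.48), Cxcl9 (-0.31) and Srm (-0.0079) in MI-E, and, without barcodes of other lineages, Il6 (-0.17) and Mfge8 (-0.15) in MI-E. The median of cavity macrophage genes between MI-E and MI went from 0.64 to -0.045 with no filter, -0.088 with a minimum of 3 UMIs and -0.030 without barcodes of other lineages. Depth limits the Sham class most: 87 cells held 843143 UMIs, so a gene with 0 UMIs there may lie at up to 3.56 CPM.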

Other observations

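Some of the genes lower in cycling cells of each library are known from immune functions of macrophages, and the 4 given here were picked after their values were seen. Tnfsf13, which encodes the B cell factor APRIL, was at 33.2 against 56.8 CPM in Sham, 43.7 against 79.8 CPM in MI and 37.6 against 76.3 CPM in MI-E. Lst1, a myeloid adaptor, was at 230 against 360, 460 against 717 and 346 against 641 CPM, and Fcgr1, the high-affinity IgG receptor, at 88.9 against 128, 206 against 292 and 295 against 458 CPM. Pla2g7, an enzyme that inactivates platelet-activating factor, was at 192 against 275, 112 against 207 and 134 against 249 CPM. Each was lower in the dividing class of every library, with MI-E log2 ratios that shrank but kept their sign without barcodes of other lineages.

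Nonclassical monocyte genes had medians over Sham, MI and MI-E of 0.26, 0.00 and 0.05, with 2 of 8 at least 1.5-fold higher in each and 1, 1 and 2 lower. Without barcodes of other lineages the Sham median was 0.05, with 1 higher and 1 lower. Spn, which encodes the sialoglycoprotein CD43, was higher in cycling cells of all 3 libraries, at 22.5 against 5.59, 11.4 against 4.03 and 9.51 against 3.75 CPM. Bhlhe40, a factor linked to macrophage division, was at 48.6 against 17.3 CPM in Sham (2.81-fold, 1.98 to 3.90), 114 against 117 CPM in MI and 128 against 143 CPM in MI-E, so its higher level in dividing cells was seen in Sham, and the difference between libraries was not tested.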
